A study of Mus musculus with 5480 samples.

Results

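The fibrillar collagens described here are 7 genes, Col1a1, Col1a2, Col3a1, Col5a1, Col5a2, Col5a3 and Col11a1, taken by name from the 18072 genes of a single-cell read count table of mouse distal lung mesenchyme. Their reads were followed through every cell subtype, age and oxygen condition of the study. Single cells were sorted into plates and sequenced with a Tn5 transposase method and no RNA extraction, which gave 5480 cells from 10 mice, labelled by the submitters with 16 cell subtypes. Each of the 5 groups held 1 female and 1 male mouse: E18.5 (before birth), P1, P7 and P21 under normal treatment, and P7 under hyperoxia, that is raised oxygen. The oxygen level and the strain are not given in the sources used here. The mouse was the replicate, so each group had n = 2, and p-values measure the spread between those mice only. Subtypes labelled early and those of the same name without that word were joined into 1 class (alveolar fibroblasts, adventitial fibroblasts, airway smooth muscle). Early and later labels follow age, so a step between labels and a step between ages cannot be told apart.

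Fibrillar collagens are secreted as 3-chain procollagens whose propeptides are cut off outside the cell, after which the rods pack into cross-linked fibrils. Type I collagen, built from the Col1a1 and Col1a2 chains, and type III collagen, built from Col3a1 alone, make up most of the fibril mass in the lung interstitium and around its airways and vessels. The chains of type V (Col5a1, Col5a2, Col5a3) and type XI (Col11a1) form minor collagens that sit inside fibrils and help to start them and set their width, and Col11a1 is best known from cartilage.

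The 7 genes lie on 6 chromosomes in the GRCm38 assembly with the GENCODE M21 annotation. Col1a1 is at chr11:94936224-94953042 on the plus strand, with 51 exons in its longest transcript, and Col1a2 is at chr6:4504814-4541544, also on the plus strand. Col3a1 (chr1:45311538-45349706, plus) and Col5a2 (chr1:45374321-45503282, minus) lie beside each other. Col5a1 is at chr2:27886425-28039514, Col5a3 at chr9:20770050-20815067 on the minus strand, and Col11a1 at chr3:114030540-114220718. Col5a1 overlaps 2 genes on the opposite strand (2810430I11Rik and Gm13372), and Col5a3 overlaps 1 (Gm26274). On the same strand, Col1a2 overlaps Gm43921, Col3a1 overlaps Gm47302 and Col5a2 overlaps Gm38211. Reads of the same-strand overlaps may be shared under any strand setting. Whether the counting used strand is not given in the sources used here, so reads of the opposite-strand overlaps may be shared too.

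RefSeq start sites on GRCm38.p6 were matched for 5 of the 7 members (Col1a2, Col3a1, Col5a1, Col5a3 and Col11a1). The 250 bases before the start are shown for 3 of them, because these 3 genes followed different courses with age: Col1a2 as a type I chain, Col3a1 as the type III chain and Col5a3 as the chain that was nearly silent before birth. Capitals mark 3 motifs searched on both strands: the box with the letters CCAAT, the box with the letters TATAAA, and the GC-rich motif with the letters GGGCGG. The last appears as CCGCCC in capitals where it lies on the opposite strand, and the motifs do not overlap here. The windows are chr6:4505368-4505617 (plus strand), chr1:45311288-45311537 (plus strand) and chr9:20815068-20815317 (minus strand), each written 5′ to 3′ on the gene's strand.
Col1a2: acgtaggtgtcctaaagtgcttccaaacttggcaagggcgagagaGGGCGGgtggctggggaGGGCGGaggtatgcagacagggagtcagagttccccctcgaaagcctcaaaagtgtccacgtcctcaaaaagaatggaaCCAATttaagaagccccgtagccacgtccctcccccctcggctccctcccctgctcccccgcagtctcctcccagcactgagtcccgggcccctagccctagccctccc
Col3a1: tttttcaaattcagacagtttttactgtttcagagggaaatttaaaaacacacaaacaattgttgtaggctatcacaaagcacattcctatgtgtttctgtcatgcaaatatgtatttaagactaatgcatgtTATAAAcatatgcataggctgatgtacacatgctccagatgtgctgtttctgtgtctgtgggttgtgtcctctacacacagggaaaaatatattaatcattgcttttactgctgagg
Col5a3: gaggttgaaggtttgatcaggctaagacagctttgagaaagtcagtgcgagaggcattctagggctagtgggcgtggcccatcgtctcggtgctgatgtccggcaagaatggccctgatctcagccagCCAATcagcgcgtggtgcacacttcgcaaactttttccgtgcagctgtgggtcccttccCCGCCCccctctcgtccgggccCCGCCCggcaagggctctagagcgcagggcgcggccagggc

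The Col1a2 window had a GC content of 62.0%, with a CCAAT box 109 bases before the RefSeq start and 2 copies of GGGCGG. That window lies inside the GENCODE span of Col1a2 given above, so the RefSeq start used lies downstream of the GENCODE start. The Col3a1 window had a GC content of 35.2%, with a TATAAA box 117 bases before the start and neither other motif. The Col5a3 window resembled that of Col1a2 in composition, with a GC content of 62.8%, a CCAAT box 122 bases before the start and 2 copies of GGGCGG on the opposite strand. Of 32851 RefSeq windows of the same length, 33.85% held the CCAAT box, 12.37% the TATAAA box and 32.74% the GGGCGG motif. A motif match describes these letters only.

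Reads per mouse ranged from 294154721 to 671766116 over 311 to 633 cells, and the median cell had 774305 reads. Levels are given as CPM, counts set to a common library total, after TMM scaling of reads summed over the cells of a class in a mouse, for classes with at least 10 cells. The method has no molecular identifiers, so intervals cover counting error only. In 5 of 6 main classes the class's own marker list had the highest mean log2 level of the 6 lists. In airway smooth muscle the myofibroblast list stood at 9.38, slightly above its own at 9.30. All 4 males under normal treatment came mainly from 1 sequencing run, while neither hyperoxia mouse shared its main run with a P7 control. Sequencing run and hyperoxia therefore cannot be told apart. The main run of the females also changed from P1 to P7 and from P7 to P21. In the females, age and run cannot be told apart in those steps. The alveolar class at E18.5 held 14 and 24 cells. In its comparison with P1 the median log2 fold change over all genes tested was 1.35, so changes there are given beside that median. Whether that median applies to genes with many reads, such as the type I chains, was not tested.

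Adventitial fibroblasts, the cells of the cuffs around airways and vessels, had the highest median level of all 7 genes among 12 classes. The 7 genes took a median of 4.56% of all reads in these cells (range 1.53 to 5.37% over 10 mice). The share was 0.850% in airway smooth muscle, 0.750% in alveolar fibroblasts, 0.582% in vascular smooth muscle, 0.516% in myofibroblasts and 0.266% in pericytes. Since the submitters built the subtypes from the same counts, differences between classes are descriptions and were not tested. Within each mouse the adventitial level exceeded the alveolar level in 10 of 10 mice for every member. The mean within-mouse difference on the log2 scale was 2.57 ± 0.62 (SD, n = 10) for Col1a1, 2.12 ± 0.54 for Col1a2 and 2.39 ± 0.70 for Col3a1. It was 2.67 ± 0.63 for Col5a1, 1.02 ± 0.44 for Col5a2, 3.34 ± 1.72 for Col5a3 and 3.86 ± 2.33 for Col11a1. Some Col5a3 and Col11a1 differences rest on values near 0. Col5a3 was 0.158 and 0.802 CPM in the adventitial cells at E18.5, against 0 in the alveolar cells of both mice. Col11a1 was 0.477 against 0.0436 CPM in the P21 male. The prior of 0.5 CPM bears on the size of such differences. Of the 7, Col5a2 had the smallest mean difference between the fibroblast classes.

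**Figure D1:**
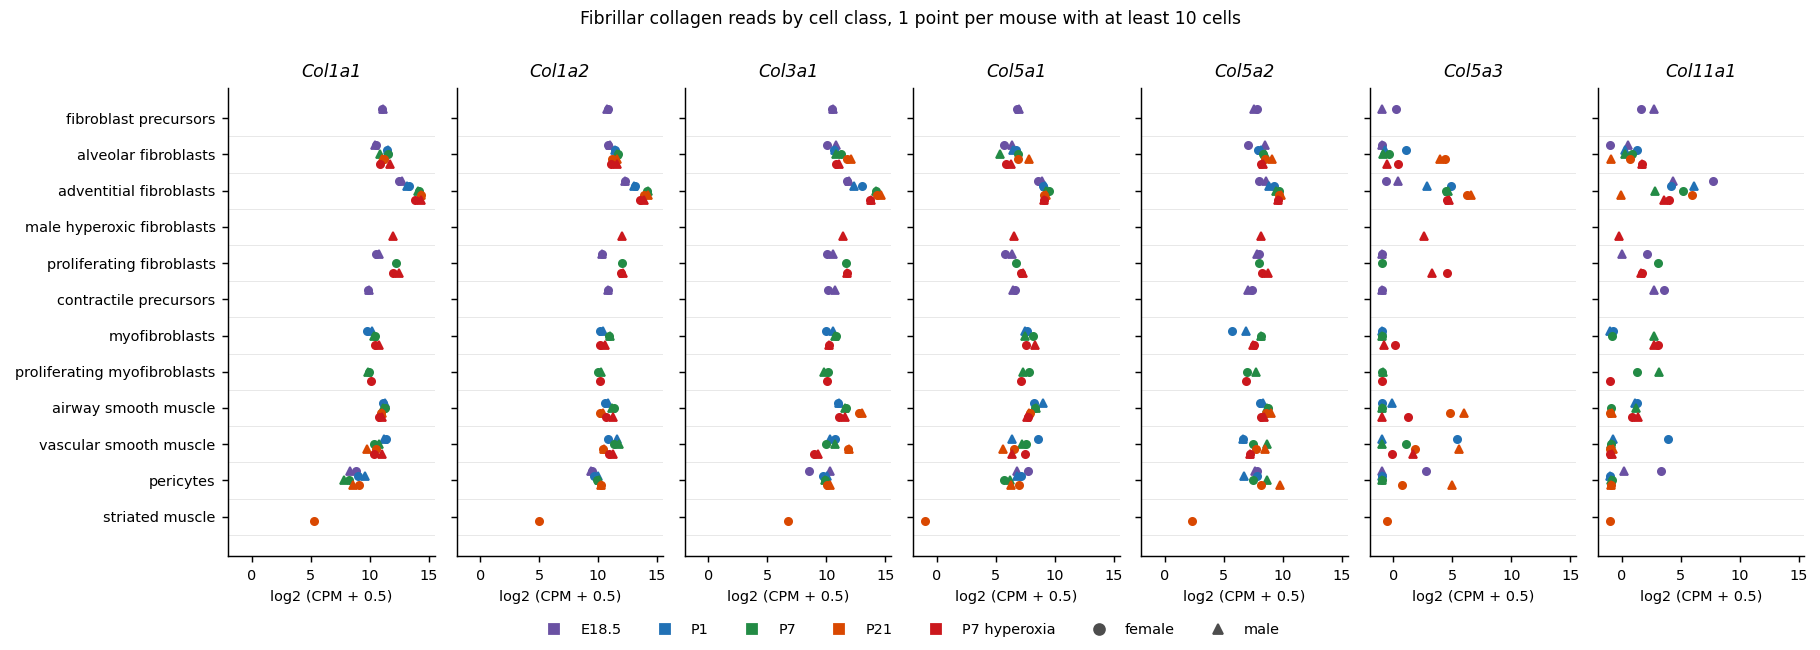
Level of each fibrillar collagen gene (CPM, log scale) by cell class, 1 point per mouse and class with at least 10 cells. Adventitial fibroblasts stand highest for each gene by their median; Col5a3 and Col11a1 reach 0 in several other classes.

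The order below the adventitial cells differed between genes. For Col1a1 the medians ran from 4077 CPM in proliferating fibroblasts through 2230 in alveolar fibroblasts, 2135 in airway smooth muscle, 1623 in vascular smooth muscle and 1355 in myofibroblasts to 420.4 in pericytes. The alveolar range (1393 to 3288) overlapped that of airway smooth muscle (1737 to 2549), so these neighbours were not separated by their spread. Col3a1 was higher in airway smooth muscle (median 3012 CPM) than in alveolar fibroblasts (1793), with overlapping ranges. Col5a1 put the contractile cells ahead: 275.0 CPM in airway smooth muscle and 198.3 in myofibroblasts, against 85.3 in alveolar fibroblasts, which ranked 11 of 12. That order pools the ages. At P21 the alveolar mean of 171.8 CPM ranked 3 of 6, with a range that overlapped those of airway smooth muscle and pericytes. Before birth, fibroblast precursors had 2098 and 2245 CPM of Col1a1 in the female and the male. The precursors of myofibroblasts and smooth muscle had 912 and 1000 CPM, below both.

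Per kilobase of exon, Col1a1 had a median of 47.6% of the summed level of the 7 genes in adventitial fibroblasts, Col3a1 27.4% and Col1a2 21.5%. With the longest transcript of each gene as its length, an alternative chosen after seeing the data, the 3 shares were 33.9%, 31.1% and 32.7%, so the order of these chains rests on the lengths. Col5a1 and Col5a2 added 1.33% and 1.45%. In pericytes Col1a1 was at 22.0% and Col5a2 at 8.75%, or at 14.3% and 7.60% with the longest transcripts. There Col3a1 was ahead of Col1a2 by joined exons (32.9% against 26.2%) and behind it by longest transcripts (34.5% against 37.7%). In airway smooth muscle Col3a1 reached 62.1% in the highest mouse, or 67.6% with the longest transcripts.

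The levels of both type I chains in adventitial fibroblasts were lowest before birth and higher at each age to P7, but neither step passed the test over all genes. Adventitial Col1a1 was 5720 CPM in the female and 6911 in the male at E18.5, then 10198 and 9034 at P1, 19015 and 17827 at P7, and 20269 and 21035 at P21. Both mice of each age stood above both mice of the age before. Col1a2 was 4887 and 5060 CPM at E18.5, then 8980 and 8484 at P1, 18152 and 19480 at P7, and 14959 and 18881 at P21. Its P21 values overlapped those at P7. From P1 to P7 the log2 fold change was 0.94 (SE 0.28) for Col1a1 and 1.10 (SE 0.28) for Col1a2, each with an edgeR adjusted p of 0.829. From E18.5 to P1 it was 0.59 (adjusted p 0.559) for Col1a1 and 0.79 (adjusted p 0.461) for Col1a2.

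Counted over all 7 members, 6 were higher in both P1 mice than in both E18.5 mice of the adventitial class and 0 were lower. Of all genes tested there, 24.1% were higher and 15.0% lower in the same way. The test called 0 of the 7, against a background of 0.17% of all genes called, and 3 members had an unadjusted p under 0.05. From P1 to P7, 5 members were higher without overlap and 0 lower, where 15.2% of all genes were higher and 19.7% lower. Again 0 were called by edgeR, where 0% of all genes were called, with 3 members at an unadjusted p under 0.05. DESeq2, the alternative tool, called 1 member in the first step (Col5a3) and 2 in the second (Col3a1 and Col1a2). From P7 to P21, 0 members were called, 0 had an unadjusted p under 0.05, DESeq2 called 0, and the background was 0.124%. The median log2 fold change of the 7 members was 0.71, 0.53 and 0.10 in these 3 steps, beside medians of 0.16, -0.067 and 0.10 over all genes tested.

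**Figure D2:**
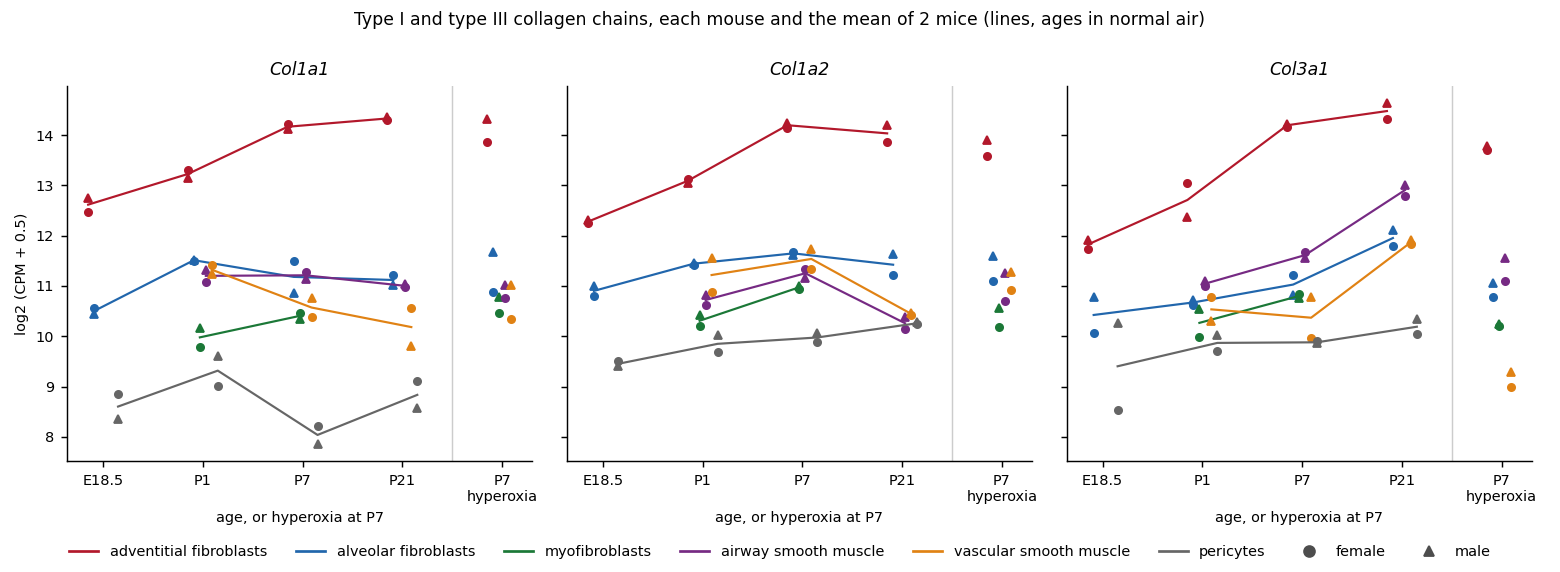
Levels of Col1a1, Col1a2 and Col3a1 (CPM) by age and hyperoxia in the main cell classes, 1 point per mouse. In adventitial fibroblasts both P7 mice stand above both P1 mice for each of the 3 genes.

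In alveolar fibroblasts the type I chains had no called difference between ages. Col1a1 was 1510 and 1393 CPM at E18.5, then 2896 and 2949 at P1, 2905 and 1855 at P7, and 2393 and 2067 at P21. For Col1a1 only the first step was without overlap, with a log2 fold change of 0.93 (SE 0.33, edgeR adjusted p 0.153). The median over all genes tested in that step was 1.35. Col1a2 was 1793 and 2042 CPM at E18.5 and 2750 and 2820 at P1. It was 3266 and 3157 CPM at P7 and 2370 and 3182 at P21. Its groups overlapped only from P7 to P21. Over the 7 members, edgeR called 0 in each alveolar age step. The background was 6.16% of genes for E18.5 to P1, 0% for P1 to P7 and 0.0702% for P7 to P21. Unadjusted p was under 0.05 for 1, 0 and 2 members in those steps, and DESeq2 called 0, 0 and 1 (Col5a3). Without overlap 4, 3 and 3 members were higher and 0 lower. Of all genes tested, 49.8%, 18.2% and 22.1% were higher in this way and 7.81%, 22.5% and 21.1% lower.

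Col1a2 stood lower in both smooth muscle classes at P21 than at P7. Col1a2 in airway smooth muscle was 2600 and 2290 CPM at P7 and 1128 and 1329 at P21, a log2 fold change of -0.98 (SE 0.31, edgeR adjusted p 0.275). In vascular smooth muscle it was 2594 and 3409 CPM at P7 and 1377 and 1414 at P21 (log2 fold change -1.09, adjusted p 0.629). The groups did not overlap in either class, but neither difference passed the test. Pericytes had 518 and 782 CPM of Col1a1 at P1 and 297 and 231 at P7 (log2 fold change -1.36, adjusted p 1.0).

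Type I collagen is mostly a trimer of 2 Col1a1 chains and 1 Col1a2 chain, so the ratio of the RNAs was taken per kilobase of exon. Over all mesenchymal cells of a mouse the ratio of Col1a1 to Col1a2 ranged from 1.47 to 2.46 with a median of 2.04 (n = 10). It ranged from 1.73 to 2.59 in adventitial fibroblasts, 1.11 to 2.02 in alveolar fibroblasts and 0.406 to 1.43 in pericytes. Airway smooth muscle had the ratios 2.63 and 2.65 at P1, 1.82 and 1.86 at P7, and 3.37 and 2.98 at P21. The size of the ratio rests on the lengths: the annotated exons of Col1a2 add up to 12.426 kb, against 5.348 kb for its longest transcript. With the longest transcripts the mean log2 ratio over all mesenchymal cells was -0.065 in place of 1.01. A fold difference of the ratio between classes or ages is the same under both lengths.

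Col3a1, the type III chain, stood higher in both P21 mice than in both P7 mice in each class present at both ages. In adventitial fibroblasts it was 3417 and 3844 CPM at E18.5, then 8467 and 5314 at P1, 18456 and 19145 at P7, and 20470 and 25541 at P21. The log2 fold change was 0.90 (SE 0.32, edgeR adjusted p 0.468) from E18.5 to P1 and 1.45 (SE 0.32, adjusted p 0.829) from P1 to P7. In airway smooth muscle Col3a1 was 2054 and 2180 CPM at P1, 3262 and 3014 at P7, and 7109 and 8300 at P21. The last step had a log2 fold change of 1.32 (SE 0.29) and an edgeR adjusted p of 0.0856. DESeq2 gave 1.37 with an adjusted p of 0.000318. In alveolar fibroblasts Col3a1 was 2396 and 1820 CPM at P7 and 3544 and 4440 at P21 (log2 fold change 0.85, adjusted p 0.619). In vascular smooth muscle it was 1000 and 1748 CPM at P7 and 3648 and 3838 at P21 (log2 fold change 1.46, adjusted p 0.530). In pericytes it was 955 and 928 CPM at P7 and 1056 and 1290 at P21 (log2 fold change 0.17, adjusted p 1.0). The P21 mice stood above the P7 mice in all 5 classes, and 0 of the 5 differences passed the edgeR test. From 16.9 to 26.8% of all genes tested in a class were higher without overlap in that step.

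Within airway smooth muscle, 2 members were higher and 3 lower at P21 without overlap, where 19.2% of all genes were higher and 24.3% lower, and 0 of 7 were called by edgeR beside 1.13% of all genes. There 3 members had an unadjusted p under 0.05 and DESeq2 called 2 (Col3a1 and Col5a3). From P1 to P7 in that class 0 members were called, 0 had an unadjusted p under 0.05, DESeq2 called 0, and the background was 0%. In vascular smooth muscle 6 members could be tested. There edgeR called 0 from P1 to P7 (background 0%, 1 at an unadjusted p under 0.05) and 0 from P7 to P21 (background 0.0886%, 2 at an unadjusted p under 0.05), and DESeq2 called 0 in both. In airway smooth muscle the 7 adventitial fibroblast markers had 1 or 2 genes at 0 in each library. They summed to 660 and 558 CPM at P1 and to 1905 and 2900 at P7. At P21 they summed to 2881 and 4793 CPM, which overlapped the P7 values. In vascular smooth muscle they summed to 692 and 1051 CPM at P7 and 626 and 1029 at P21. The part of adventitial RNA or cells in the smooth muscle values was not tested.

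Col5a1 and Col5a2 are the chains of the common type V trimer, and edgeR called neither in any comparison. Adventitial Col5a1 was 393 and 474 CPM at E18.5, then 530 and 569 at P1, 724 and 616 at P7, and 542 and 629 at P21. Its log2 fold change was within 0.32 of 0 in each step, with adjusted p of 0.738, 0.930 and 0.782. Adventitial Col5a2 was 250.5 and 388 CPM at E18.5, then 613 and 442 at P1, 832 and 689 at P7, and 822 and 924 at P21. In myofibroblasts, the contractile cells of the growing alveolar walls, Col5a2 was 52.0 and 115 CPM at P1 and 286 and 284 at P7. The log2 fold change was 1.78 (SE 0.41) with an edgeR adjusted p of 0.505, and DESeq2 gave 1.70 with an adjusted p of 0.00615. Of the 6 members tested in myofibroblasts from P1 to P7, edgeR called 0 beside a background of 0%. In that step 1 member had an unadjusted p under 0.05, and DESeq2 called that 1. Without the P1 male, Col5a2 was called there (log2 fold change 2.46, edgeR adjusted p 0.00264). In vascular smooth muscle Col5a2 was 95.01 and 95.8 CPM at P1 and 179 and 412 at P7 (log2 fold change 1.54, adjusted p 0.991).

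Pericytes, the cells that wrap capillaries, had a median share of Col5a2 among the 7 genes per kilobase of 8.75%, against 3.57% in alveolar fibroblasts, with overlapping ranges. Its level there was 217 and 197 CPM at E18.5, then 219 and 103 at P1, 174 and 411 at P7, and 289 and 861 at P21, with overlap between P7 and P21. Of the 7 members in pericytes, edgeR called 0 in each step, beside 0.042% of all genes from E18.5 to P1, 0% from P1 to P7 and 0.0504% from P7 to P21. Unadjusted p was under 0.05 for 0, 1 and 0 members and DESeq2 called 0 in each step. From P7 to P21, 5 members were higher without overlap and 0 lower, where 26.8% of all genes were higher and 14.3% lower. Over the same ages the adventitial markers in pericytes summed to 0.524 and 19.0 CPM at P7 and 31.4 and 179 at P21, with 5 and 4 of 7 genes at 0 at P7 and 0 of 7 at P21. Their part in the pericyte values was not tested.

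Col5a3, the rarer chain of type V, had the largest ratio of highest to lowest adventitial level among the 7 genes. In adventitial fibroblasts it was 0.158 and 0.802 CPM at E18.5, then 28.4 and 6.66 at P1, 21.1 and 24.3 at P7, and 76.5 and 97.4 at P21. Both P1 mice stood above both E18.5 mice, and both P21 mice above both P7 mice. The log2 fold change from E18.5 to P1 was 5.24 (SE 1.07) with an edgeR adjusted p of 0.129. Leaving out each mouse in turn gave 3.60, without the P1 female, to 6.82, without the E18.5 male. Without the P1 male it was 6.32 with an adjusted p of 0.0479, and with each cell scaled to the same depth it was 5.63 with an adjusted p of 0.0462. From P7 to P21 it was 1.88 (SE 0.88, adjusted p 0.507).

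Col5a3 was also found outside the adventitial class at P21. In alveolar fibroblasts it was 0 and 0 CPM at E18.5, then 1.63 and 0.114 at P1, 0.267 and 0.0356 at P7, and 20.6 and 15.3 at P21. The last step had a log2 fold change of 7.71 (SE 1.95) and an edgeR adjusted p of 0.518, against 2.52e-09 by DESeq2. In airway smooth muscle it had 0 reads in both P7 mice, where 3 reads over the group would be 0.0172 CPM, and 27.0 and 64.5 CPM at P21. The edgeR adjusted p was 0.211. In pericytes it had 0 reads in both P7 mice and 1.13 and 30.3 CPM at P21 (adjusted p 0.955), so the P21 level there rests mainly on the male. None of these differences passed the edgeR test.

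These Col5a3 reads came from a minority of cells. After each cell was thinned to 100000 reads, 32.7% of adventitial cells in the P21 female (95% exact binomial interval 25.5 to 40.6%) and 27.1% in the P21 male (18.0 to 37.8%) had a Col5a3 read. At P7 the shares were 6.00% (1.25 to 16.5%) and 9.26% (3.08 to 20.3%). In alveolar fibroblasts the shares at P21 were 6.82% and 5.71%, against 0.476% and 1.45% at P7. In airway smooth muscle they were 12.9% and 8.93% at P21. At P7 they were 0 of 75 and 0 of 63 cells, which allows up to 4.00% and 4.76% by 3 cells of the total and up to 4.80% and 5.69% by the exact binomial interval. As a background, 3 genes of other cell types were counted in the same thinned P21 cells. The epithelial gene Epcam had a read in 0% of the cells of these 3 classes. The endothelial gene Pecam1 had one in 2.52% and 2.35% of adventitial cells, 3.98% and 5.71% of alveolar cells and 3.23% and 0% of airway smooth muscle cells. The immune gene Ptprc had one in 0 to 2.86% of them. The alveolar Col5a3 share of the male equals that of Pecam1, and that of the female lies within the interval of Pecam1 (1.61 to 8.02%), so the alveolar shares are not separated from background. Median depth per cell was 640479 to 1052960 reads in these libraries. Without thinning the adventitial shares were 41.6% and 32.6% at P21. In the P21 airway smooth muscle 95.6% of the Col5a3 reads of the female and 99.9% of those of the male came from the top 10th of its cells.

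**Figure D3:**
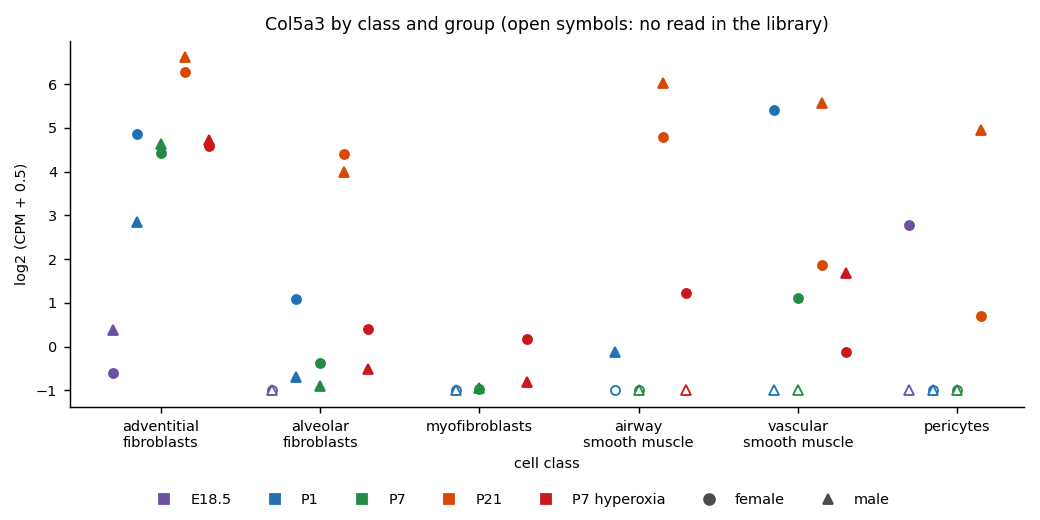
Col5a3 level (CPM, log scale with 0 shown) by age and hyperoxia in the main cell classes, 1 point per mouse. The 2 P21 mice of the adventitial class lie at 76.5 and 97.4 CPM, and both P21 mice lie above both P7 mice in alveolar fibroblasts, airway smooth muscle and pericytes.

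Col11a1, the type XI chain, was uneven between mice. Its adventitial level was 221 and 19.9 CPM at E18.5, then 17.5 and 71.9 at P1, 36.5 and 6.70 at P7, and 63.1 and 0.477 at P21. The groups overlapped in each age step, and no age comparison in any class called it. In 4 of the 10 libraries most of its reads came from cells with cartilage genes. Cells with a read of at least 2 of the 6 cartilage genes in the table were 2 of 26 adventitial cells in the E18.5 female, 5 of 67 in the P1 male and 9 of 161 in the P21 female. These cells held 52.8%, 91.2% and 93.8% of the Col11a1 reads of that library. Without them the level was 109, 6.67 and 4.13 CPM. In the other 7 libraries such cells held 52.4% of the reads in the P7 female, 34.8% and 29.0% in the hyperoxia female and male and 10.3% in the P1 female. The 6 such cells of the P7 male and the 4 of the P21 male held 0%, and the E18.5 male had 0 such cells. The cartilage genes summed to 522, 537 and 258 CPM in those 3 libraries and to between 14.8 and 71.1 CPM in the other 7. The top single cell held 63.3% of the Col11a1 reads in the E18.5 male, 48.4% in the P7 male and 86.8% in the P21 male. It held 50.8% in the E18.5 female, 72.4% in the P1 male and 52.4% in the P7 female. In the remaining libraries it held 22.0 to 35.6%. The share of adventitial cells with a Col11a1 read after thinning was 42.3% and 20.7% at E18.5, then 12.7% and 11.3% at P1, 12.0% and 9.26% at P7, and 4.40% and 2.35% at P21. The E18.5 share rests on 26 and 29 cells.

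Summed over all mesenchymal cells of a mouse, 3 of the 7 members rose from P7 to P21. Col3a1 was 3501 and 3360 CPM at P7 and 8820 and 10561 at P21, a log2 fold change of 1.49 (SE 0.33, edgeR adjusted p 0.0224). Col5a3 was 1.86 and 2.24 CPM at P7 and 34.5 and 52.4 at P21, a log2 fold change of 4.45 (SE 1.06, adjusted p 0.0277). Col1a1 was 3521 and 2988 CPM at P7 and 7658 and 7378 at P21, a log2 fold change of 1.19 (SE 0.33, adjusted p 0.0496). The groups did not overlap, each time higher at P21 as for 26.3% of all genes, for any of the 3 or for Col1a2 (0.74, adjusted p 0.165), Col5a2 (0.71, adjusted p 0.122) and Col5a1 (0.32, adjusted p 0.459). In this comparison 9.97% of all genes were called, and the median log2 fold change was 0.85 for the members and 0.029 for all genes. Of the 3 calls, 0 held without the P7 female and 0 without the P7 male. Col5a3 alone held without either E18.5 mouse, and Col3a1 alone of the 3 without the P21 male. Col1a1 was no longer called without any 1 of the 8 mice under normal treatment, and stayed called without either hyperoxia mouse. Its adjusted p was 0.0561 with no filter on low counts and 0.0743 with each cell scaled to the same depth. With only the 4 mice compared, 1 of the 3 was called. DESeq2 called 4, the added one being Col1a2. Within the 1 sequencing run of the males, Col3a1 was 3360 CPM at P7 and 10561 at P21, Col1a1 2988 and 7378, and Col5a3 2.24 and 52.4.

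Such a sum moves with the make-up of the cells as well as with their RNA. Adventitial fibroblasts were 8.25% and 9.82% of the cells at P7 and 30.7% and 27.7% at P21. They gave 43.5% and 54.6% of all Col1a1 reads at P7 and 85.4% and 88.7% at P21. For Col3a1 the adventitial share of reads was 42.4% and 52.2% at P7 and 74.9% and 75.2% at P21. At E18.5 they were 4.15% and 5.01% of cells and gave 14.1% and 15.0% of Col1a1 reads, while fibroblast precursors gave 71.9% and 66.8%. How many cells of a type the sort recovered is part of these shares. With adventitial fibroblasts left out, an alternative chosen after seeing the data, the P7 to P21 log2 fold change was -0.29 for Col1a1 (edgeR adjusted p 0.659) and -0.51 for Col1a2 (adjusted p 0.317). It was 0.89 for Col3a1 (adjusted p 0.0880) and 9.12 for Col5a3 (adjusted p 0.0150), so that 1 of 7 members was called.

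**Figure D4:**
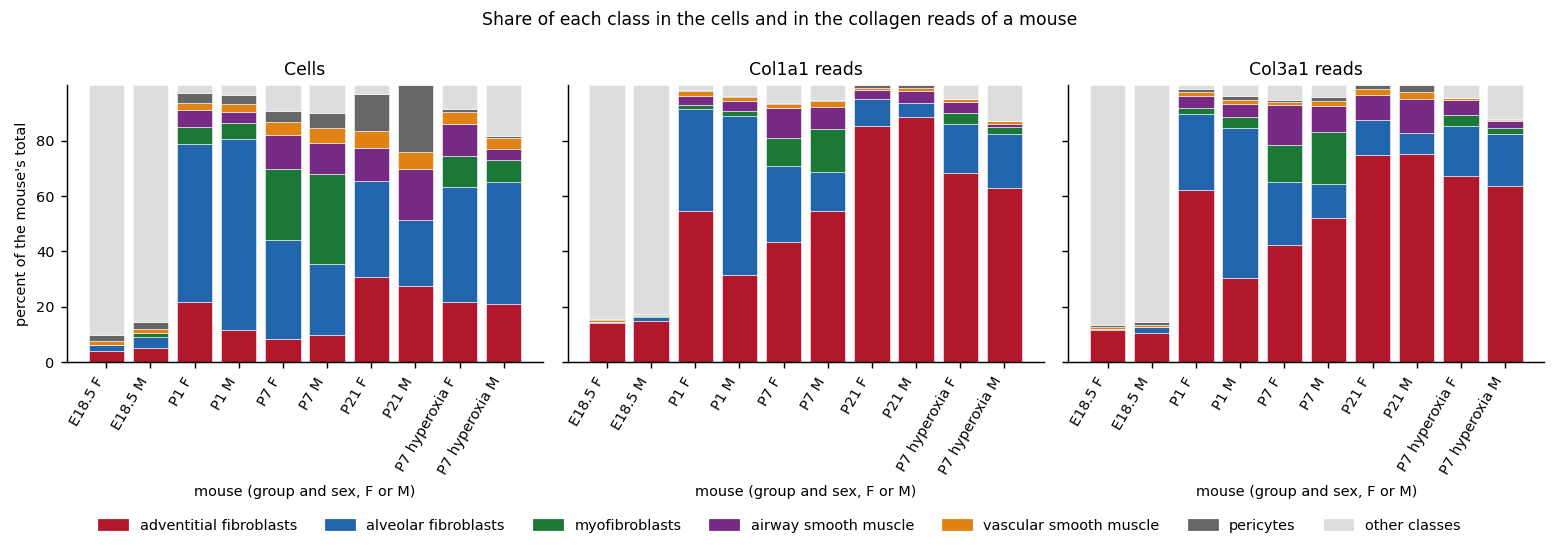
Share of the cells, of the Col1a1 reads and of the Col3a1 reads that came from each cell class (percent, by mouse). Adventitial fibroblasts gave 85.4% and 88.7% of Col1a1 reads in the P21 mice and 14.1% and 15.0% in the E18.5 mice.

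**Figure D5:**
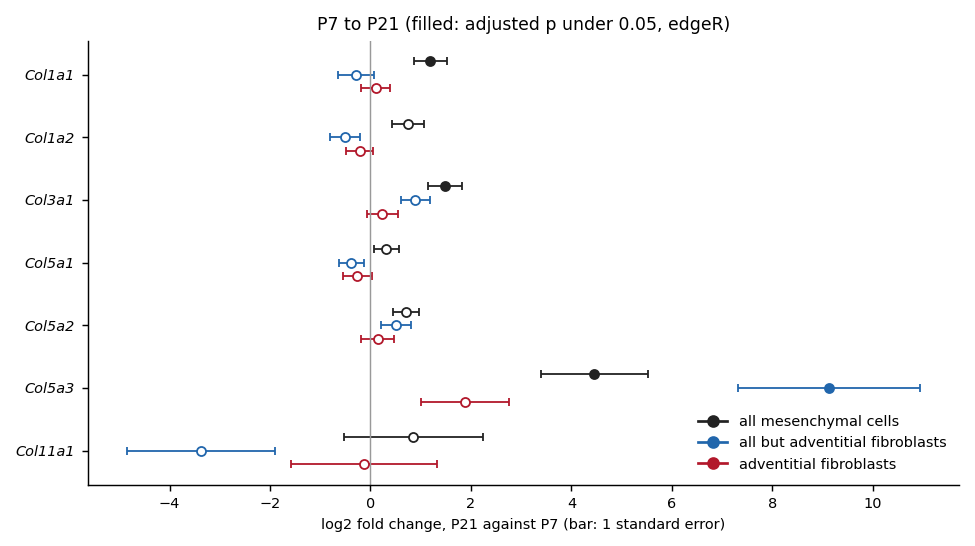
Log2 fold change from P7 to P21 (± SE) of each member over all mesenchymal cells, with and without the adventitial fibroblasts. Col1a1 goes from 1.19 to -0.29 and Col1a2 from 0.74 to -0.51, while Col3a1 and Col5a3 stay above 0.

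In the earlier steps edgeR called no member over all mesenchymal cells. From E18.5 to P1, 6 members were higher without overlap and 0 lower, where 24.2% of all genes were higher and 25.2% lower. There 5 members had an unadjusted p under 0.05, and edgeR called 0 of 7 beside 1.23% of all genes. DESeq2 called 3 there (Col1a1, Col1a2 and Col5a3). Col1a1 was 2026 and 2072 CPM at E18.5 and 4411 and 3533 at P1 (log2 fold change 0.95, edgeR adjusted p 0.262). From P1 to P7, edgeR called 0 of 7 beside 0.22% of all genes, 0 had an unadjusted p under 0.05, and DESeq2 called 0.

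Hyperoxia at P7 gave no call for any member in any class. In adventitial fibroblasts Col3a1 was 18456 and 19145 CPM in the P7 controls and 13304 and 14094 under hyperoxia, without overlap (log2 fold change -0.49, SE 0.31, edgeR adjusted p 0.697). Col1a2 was 18152 and 19480 CPM in controls and 12294 and 15414 under hyperoxia (log2 fold change -0.48, adjusted p 0.661). Col1a1 overlapped between the groups, at 14919 and 20548 CPM under hyperoxia. In myofibroblasts Col5a2 was 286 and 284 CPM in controls and 186 and 172 under hyperoxia (log2 fold change -0.61, adjusted p 0.865), and Col3a1 was 1828 and 1742 against 1171 and 1216 (log2 fold change -0.53, adjusted p 0.857). In vascular smooth muscle Col3a1 was 1000 and 1748 CPM in controls and 509 and 624 under hyperoxia (log2 fold change -1.33, SE 0.45, adjusted p 1.0). The members without overlap were 3 lower and 0 higher in adventitial fibroblasts, 3 lower and 1 higher in myofibroblasts, 4 lower and 0 higher in airway smooth muscle, 3 lower and 0 higher in vascular smooth muscle, and 1 each way in alveolar fibroblasts. Of all genes tested in these classes, 18.0%, 25.7%, 21.1%, 16.7% and 20.1% were lower without overlap in that order, and 27.2%, 21.5%, 15.9%, 19.8% and 23.1% higher. In each of these 5 classes edgeR called 0% of all genes, so the background is 0%, and DESeq2 called 0 members. Unadjusted p was under 0.05 for 1 member in airway smooth muscle (Col5a3, from 1 mouse), 1 in vascular smooth muscle and 0 in the other 3 classes.

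Over all mesenchymal cells most members stood higher under hyperoxia, without a call. Col1a1 was 3521 and 2988 CPM in controls and 4750 and 7087 under hyperoxia (log2 fold change 0.82, SE 0.33, edgeR adjusted p 0.350). Without overlap 6 members were higher and 0 lower, beside 25.7% and 22.5% of all genes, and edgeR called 0 of 7 beside 0.243% of all genes, with 1 at an unadjusted p under 0.05 and 0 by DESeq2. Adventitial fibroblasts were 21.6% and 21.1% of the hyperoxia cells, against 8.25% and 9.82% in controls. With them left out, an alternative chosen after seeing the data, the Col1a1 log2 fold change was 0.48 (edgeR adjusted p 0.684). It was 0.050 for Col1a2, -0.036 for Col3a1, -0.14 for Col5a2 and -0.49 for Col5a1. For Col5a3 it was 5.26 (edgeR adjusted p 0.279) and for Col11a1 0.16. Mesothelial genes summed to 127 and 155 CPM over all cells under hyperoxia and to 21.8 and 0.364 in controls. By class they summed highest in adventitial fibroblasts, with a median of 10.4 CPM over 10 mice and 700 CPM in the highest. In libraries of the other classes they summed to at most 26.1 CPM. Their part in these sums, and in the adventitial values and cell shares, was not tested.

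Whether the response to hyperoxia differed between classes was tested directly. The difference between the adventitial and the alveolar effect was called for 0 of 7 members, with 0% of all genes called, 0 members at an unadjusted p under 0.05 and 0 called by DESeq2. For myofibroblasts against alveolar fibroblasts it was called for 0 of 7, beside 0.013% of all genes, with 1 at an unadjusted p under 0.05 and 0 by DESeq2. The lowest unadjusted p there was that of Col3a1, with a difference of -0.47 on the log2 scale (SE 0.18, edgeR adjusted p 0.824).

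The ratio of the type I chains in myofibroblasts stood higher under hyperoxia than in the P7 controls, as a description. Col1a1 to Col1a2 per kilobase was 1.35 and 1.20 in the P7 controls and 2.29 and 2.22 under hyperoxia. In adventitial fibroblasts it was 1.98 and 1.73 in controls and 2.30 and 2.52 under hyperoxia, and in vascular smooth muscle 0.975 and 0.962 against 1.26 and 1.58. Both hyperoxia mice stood above both controls in these 3 classes. Airway smooth muscle overlapped, with 1.82 and 1.86 in controls against 1.98 and 1.60. So did alveolar fibroblasts, with 1.68 and 1.11 against 1.64 and 2.02. Proliferating myofibroblasts had 1.86 and 1.41 in controls and 1.83 in the hyperoxia female, within the control range. Proliferating fibroblasts had 2.20 in the control female and 1.97 and 2.41 under hyperoxia. No test was run on the ratio, and the sequencing runs differ between the groups as stated above.

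The 55 cells labelled male hyperoxic fibroblast came from 1 mouse. They had 3896 CPM of Col1a1, 4056 of Col1a2, 2645 of Col3a1 and 5.72 of Col5a3. The Col1a1 level lay above that of the same mouse's alveolar fibroblasts (3288 CPM) and below that of its adventitial fibroblasts (20548 CPM). The epithelial marker list had a mean log2 level of 3.24 in these cells and at most 0.66 in any other class. Without thinning, 16.4% of them had an Epcam read and 41.8% a Pecam1 read, at a median depth of 1393660 reads. After thinning these shares were 1.82% and 7.27%. The part of RNA from other cell types was not tested.

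Of the genes that process collagen or share its fibrils, 75 were listed. Over all mesenchymal cells from P7 to P21, 16 of the 75 rose and 5 fell, with a median log2 fold change of 0.65 beside 0.029 for all genes. Of all 17283 genes tested there, 932 were called higher and 791 lower (9.97%). Risers included the fibril-coating proteoglycans Dcn (log2 fold change 3.84, adjusted p 0.00773), Lum (4.27, adjusted p 0.00564) and Ogn (2.15, adjusted p 0.000965). Pcolce2, which speeds propeptide removal, rose by 2.65 (adjusted p 0.000749), the matrix protease Mmp3 by 8.45 (adjusted p 4.93e-05) and the protease inhibitor Timp3 by 2.79 (adjusted p 0.000608). The fallers were the fibrillar collagen Col27a1 (-1.65), the prolyl hydroxylase subunit P4ha3 (-2.61), the fibril-associated Col12a1 (-2.08), the cross-linking enzyme Loxl2 (-1.38) and Tgfb2 (-1.51), with edgeR adjusted p from 0.00244 to 0.0283. This comparison carries the shift in cell make-up described above.

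Within classes fewer of these genes were called. From E18.5 to P1 the cross-linking enzyme Lox fell by 1.84 in adventitial fibroblasts (edgeR adjusted p 0.0427) and by 2.10 in alveolar fibroblasts (adjusted p 0.0352), where its relative Loxl1 rose by 1.91 (adjusted p 0.0312). In the alveolar class 7 of 74 listed genes rose and 1 fell, with a median of 0.87 below that of all genes (1.35). Of all 15670 genes tested there, 956 were called higher and 10 lower (6.16%). The rise of Loxl1 is read beside the same median of 1.35. Over all cells in that step 6 listed genes rose and 1, Lox, fell, beside 1.23% of all genes called. In adventitial fibroblasts from P7 to P21 the matricellular genes Postn (-3.78, adjusted p 0.0462) and Thbs2 (-2.62, adjusted p 0.0462) fell and Mmp3 rose (6.48, adjusted p 0.00429), while 0 of the 7 fibrillar collagens were called. In airway smooth muscle over the same ages 4 rose, among them Pcolce2 (7.15, adjusted p 0.0203) and Ogn (3.65, adjusted p 0.0133), and 3 fell: Col27a1 (-3.60), Postn (-4.44) and Col12a1 (-2.41). Vascular smooth muscle had 2 higher and 0 lower, and pericytes 0 higher and 1 lower (Fn1, -8.36, edgeR adjusted p 0.00547). Of all genes, 0.124% were called from P7 to P21 in adventitial fibroblasts and 1.13% in airway smooth muscle. The share was 0.0886% in vascular smooth muscle and 0.0504% in pericytes. Under hyperoxia Mmp3 was higher over all cells (3.58, edgeR adjusted p 0.00749), and no other listed gene was called, beside 0.243% of all genes. In the other 16 comparisons 0 listed genes were called.

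Across 64 class-by-mouse libraries, the genes most like each member were found among 9472 genes by Pearson correlation of log2 CPM. The libraries of 1 mouse share that mouse and its run, so the values are descriptions. Col1a1 was most like Col1a2 (0.937), then Igfbp4 (0.859), Col3a1 (0.855) and Serpinf1 (0.813). Col3a1 was next to the type I chains most like Igfbp6 (0.823) and Col5a2 (0.778). Col5a1 had no other member among its nearest 5, which were Rcn3 (0.862), Mmp14 (0.845), Colgalt1 (0.817), Fkbp10 (0.808) and Arl1 (0.807). Colgalt1 and Fkbp10 act on collagen chains in the endoplasmic reticulum. Col5a2 was nearest to Sptbn1 (0.795) and Lrp1 (0.789). Col5a3 was nearest to Mmp3 (0.722), Adamtsl1 (0.716), the pseudogene Gstm2-ps1 (0.705), whose reads may be shared with its parent gene, and the complement gene C3 (0.693), and Col11a1 to Rtl3 (0.681).

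Between single cells of 1 class and mouse the type I chains went together most closely in adventitial fibroblasts. The rank correlation of Col1a1 with Col1a2 over cells had a median of 0.885 over 8 mice (0.703 to 0.969). It was 0.533 over 8 mice (0.248 to 0.661) in alveolar fibroblasts, 0.415 over 3 mice in myofibroblasts and 0.396 over 5 mice in airway smooth muscle. Col1a1 with Col3a1 had medians of 0.750 and 0.392 in the 2 fibroblast classes. The cells of a library share its depth and preparation, and lower levels carry more counting noise. Type I chains were found in nearly all fibroblasts: after thinning, 96.2 to 100% of adventitial cells and 91.4 to 100% of alveolar cells had a Col1a1 read, against 68.0 to 87.0% of pericytes.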

How the data were processed

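Single cells of distal lung mesenchyme from 10 mice were analysed from the deposited table of read counts per gene and cell, whose whole-number counts the authors made with STAR 2.5.2b and HTSeq 0.10, per the submitters' processing notes. These notes name the genome build GRCh38, a human build, while the gene names are those of mouse. Annotation, strand setting and filters are not given in the sources used here. Cell subtypes are the submitters' labels. The members and gene lists were chosen with earlier results of these data known.

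Counts were summed per mouse over the cells of a class (at least 10 cells) and tested with edgeR 4.0.16 in R 4.3.3. The settings were the quasi-likelihood test, TMM, filterByExpr, terms for group and sex, and Benjamini-Hochberg adjustment over all genes tested with a threshold of 0.05. All groups with 2 mice entered each fit. Sex is the replicate block, since each group has 1 mouse of each sex. By the labels the males under normal treatment also share their main sequencing run, which the females do not. The term for sex and the run therefore cannot be fully told apart. SE is the fold change divided by the root of its F statistic. Log2 levels used a prior of 0.5 CPM, and cells were thinned to 100000 reads for shares. All members tested in a comparison (6 or 7) were counted, and only some are named with their values. Of the listed genes past the threshold, some are named (at most 12, with at least 10 CPM in 1 group). Alternatives were DESeq2 1.42.0, its size factors within edgeR, no low-count filter, total-read CPM, longest transcripts, thinning to fewer reads or none, the mesenchymal sort only, the male hyperoxia mouse by its first plate, only the 4 mice compared, equal depth per cell, no term for sex, and each mouse left out. The scripts were tested on simulated data. Doublets were not removed, and 69 cells from a CD31 sort and 2 from a CD45 sort, per the labels, were kept. Python 3.11.15 was used for levels and figures.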

Additional observations from a re-analysis of the deposited data

Results flagged for a closer look

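Several members went opposite ways in 2 cell classes over the same ages, with both later mice above both earlier mice in 1 class and below them in the other. None of these differences was tested, and each value is the difference of the 2 log2 fold changes. From P1 to P7, Col1a1 was higher in adventitial fibroblasts and lower in pericytes (2.30) and in vascular smooth muscle (1.67). It was also higher in myofibroblasts than before while lower in pericytes (1.74) and in vascular smooth muscle (1.11). Col5a1 was higher in adventitial fibroblasts and lower in pericytes from P1 to P7 (1.24). Of all genes tested in that step, 15.2% were higher without overlap in adventitial fibroblasts and 27.3% in myofibroblasts. In pericytes 15.3% were lower in this way and in vascular smooth muscle 15.1%. How many of all genes went opposite ways in 2 classes was not counted.

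From P7 to P21, Col1a1 was higher in adventitial fibroblasts and lower in airway smooth muscle, by a small difference (0.29). Pericytes were higher at P21 for Col1a1 while airway smooth muscle was lower (0.87). For Col1a2 the pericytes differed from airway smooth muscle by 1.14 and from vascular smooth muscle by 1.26. For Col5a1 they differed from airway smooth muscle by 0.93 and from vascular smooth muscle by 1.83. Of all genes tested from P7 to P21, 24.5% were higher without overlap in adventitial fibroblasts and 26.8% in pericytes. In airway smooth muscle 24.3% were lower in this way and in vascular smooth muscle 20.0%. The pericyte libraries held 20 to 75 cells at P1, P7 and P21.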

How the results depend on the processing

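Apart from leaving out a mouse, 172 recomputed counts of members called stayed within 1.5 times of the reported count and 10 did not. With DESeq2 in place of edgeR, 1 member was called in alveolar fibroblasts from P7 to P21, 1 in adventitial fibroblasts from E18.5 to P1, 2 there from P1 to P7, 1 in myofibroblasts from P1 to P7, 2 in airway smooth muscle from P7 to P21, and 3 over all cells from E18.5 to P1, where edgeR called 0. With equal depth per cell, 1 was called in adventitial fibroblasts from E18.5 to P1. With only the 4 mice compared, 2 were called over all cells from E18.5 to P1 and 1 in place of 3 from P7 to P21. Without adventitial fibroblasts, chosen after seeing the data, 1 was called from P7 to P21, and the log2 fold changes of Col1a1 and Col1a2 were -0.29 and -0.51.

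With each mouse left out in turn, the count ranged from 0 to 1 in adventitial fibroblasts from E18.5 to P1 and in myofibroblasts from P1 to P7, and from 0 to 4 over all cells from P7 to P21. The count of 1 came in each case without the P1 male, and the 2 counts of 1 over all cells from P7 to P21 without either E18.5 mouse. Col5a3 under hyperoxia in airway smooth muscle ranged from -1.18 without the hyperoxia female to 10.8 without the male. Where a mouse was left out of a group, the lone mouse was assumed to vary like the others. Without the replicate block for sex, 3 members were still called over all cells from P7 to P21, and the block changed no other count by more than 1.5 times. With longest transcripts the log2 ratio of Col1a1 to Col1a2 was -0.065. Without thinning the share of cells with a Col11a1 read was 7.75%. Apart from these, the cause of a change was not tested.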
